A study of Homo sapiens with 6 samples.

Results

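The SNAI, ZEB and TWIST genes encode the transcription factors best known for driving epithelial-mesenchymal transition, and all 7 of them (SNAI1, SNAI2, SNAI3, ZEB1, ZEB2, TWIST1 and TWIST2) were measured among 14812 named genes. They were chosen by gene symbol, and each was read by 1 named probe set, so the rule of taking the probe set with the highest mean had no choice to make. None of the 7 probe sets shared its values with another probe set. The cells were HuH7, a human hepatoma line. All 6 samples were given poly I:C, which mimics viral RNA, together with a plasmid for PKR, a kinase that senses such RNA, in order to induce the long noncoding RNA EGOT. In addition 3 samples received 50 pmol of a gapmer against EGOT and 3 received 50 pmol of a control gapmer, and RNA was isolated 36 hours after transfection. A gapmer is a short antisense oligonucleotide whose middle stretch of DNA lets RNase H cut the RNA it pairs with. Only 1 gapmer sequence against EGOT was used, and no sample lacked PKR and poly I:C. Expression was read on an Affymetrix whole-transcript array, and the question is how expression differs between cells depleted of EGOT and control cells. Whether replicates were separate cultures is not stated in the labels, so the spread behind every p-value is that between these samples and may be technical.

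SNAI factors (Snail, Slug and Smuc) carry zinc fingers that bind E-box sequences and an N-terminal domain that recruits corepressors. ZEB factors bind related sequences through zinc finger clusters at both ends of the protein, and TWIST factors are basic helix-loop-helix proteins that bind E-boxes as dimers. Together they repress epithelial genes such as the one for E-cadherin. ZEB1 and ZEB2 transcripts are known targets of the miR-200 family of microRNAs, whose genes the ZEB proteins repress in turn. In liver these factors have been studied in hepatocellular carcinoma and in fibrosis.

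The target sequences given in the labels are printed first because they define the comparison, in the orientation the labels use.
EGOT gapmer: agagacacttagaaga
control gapmer: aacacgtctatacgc

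The arrays had medians between 5.075 and 5.23 on the log2 scale over 44629 probe sets. EGOT fell from 6.59 ± 0.269 to 4.83 ± 0.126 (mean ± SD of log2 expression, n = 3 each), a log2 difference of -1.76 (limma adjusted p = 0.0076). Marker genes of hepatocytes and hepatoma cells were bright in both groups. The mean of 14 measured markers lay between 12.18 and 12.21 with the control gapmer and between 12.23 and 12.25 with the EGOT gapmer. Only 1 of them, APOA1, passed, and it was higher by 0.36 (limma adjusted p = 0.0406). It passed in 3 of 14 alternatives and in 0 of 6 fits with 1 array left out. Over all genes 1245 of 14812 passed an adjusted p of 0.05 (8.41%), 770 higher (5.2%) and 475 lower (3.21%) with the EGOT gapmer. The split depended on scaling, with 679 higher and 674 lower after another quantile normalization and 644 higher and 677 lower after cyclic loess.

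SNAI1 rose and ZEB2 fell with the EGOT gapmer, while SNAI2, SNAI3, ZEB1, TWIST1 and TWIST2 did not pass the test. SNAI1 was 1.74-fold higher, and ZEB2 was at 0.802 of its control level. So 2 of the 7 genes passed, beside 8.41% of all genes tested, and their median log2 difference was -0.02 beside 0.0372 over all genes. At an unadjusted p under 0.05 there were the same 2 genes, beside 25% of all genes, and the groups did not overlap in 3 of the 7, beside 31.7%. The genes were proposed with earlier results of these data known, so nothing is read from that share. In cultured cells measured in bulk, a changed number of expressing cells and a changed amount of RNA per cell cannot be told apart.

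**Figure D1:**
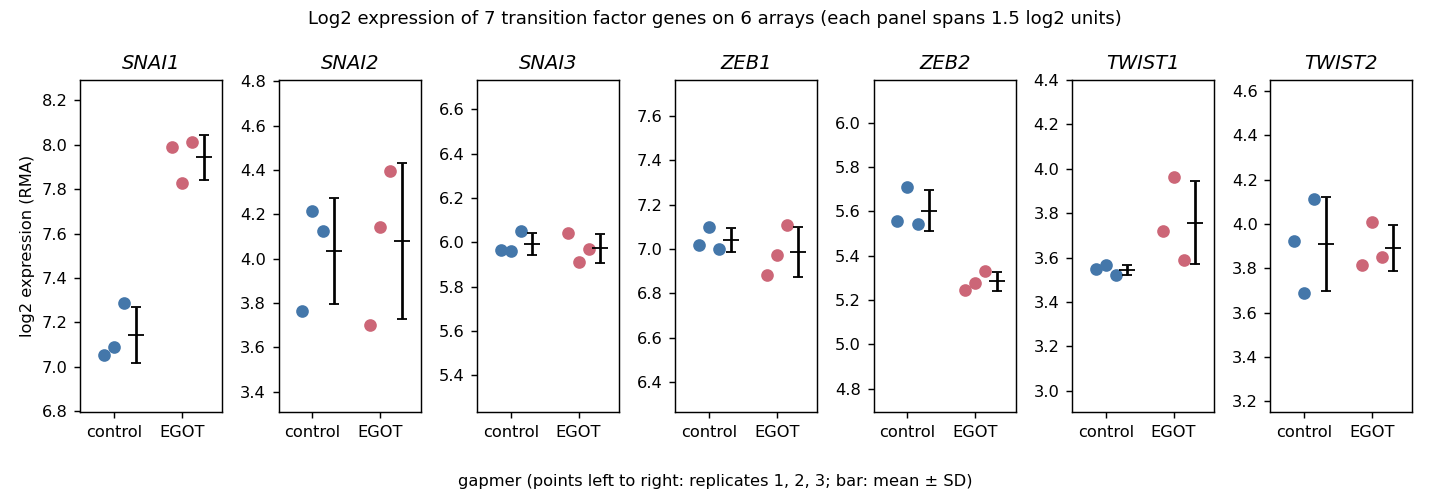
Log2 expression (RMA) of the 7 genes on each array, with control gapmer in blue and EGOT gapmer in red, replicates 1 to 3 from left to right, and the mean ± SD as a black bar; every panel spans the same range. The groups lie apart in SNAI1, ZEB2 and, narrowly, TWIST1.

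SNAI1, which encodes Snail, a short-lived repressor of E-cadherin transcription, read 7.05, 7.09 and 7.29 in control gapmer replicates 1 to 3. With the EGOT gapmer it read 7.99, 7.83 and 8.01. All 3 EGOT gapmer arrays lay above all 3 control arrays, with a gap of 0.538 between the groups, which exceeded the range of 0.236 among the control arrays and of 0.188 among the EGOT gapmer arrays. This was a log2 difference of 0.80 with standard error 0.0937 and a 95% interval from 0.58 to 1.02 (limma adjusted p = 0.0108). By size it was number 22 of the 770 genes that rose. A two-sided exact permutation test of its 6 values gave p = 0.1, and 3 arrays against 3 cannot give less.

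Among the alternatives, only another normalization or removal of a trend on gene length could have turned the direction of SNAI1. The others keep its difference, or leave out 1 array from groups that do not overlap. The rise of SNAI1 kept its direction in every alternative, between 0.71 and 0.87, and passed in 11 of 14. Without control gapmer replicate 1 it was 0.75 (limma adjusted p = 0.0555), and without control gapmer replicate 2 it was 0.77 (limma adjusted p = 0.0621). Without control gapmer replicate 3, which had the highest control value, it was 0.87 and still passed (limma adjusted p = 0.0414).

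SNAI2, which encodes Slug, was dim and variable, below the median of the array on all 6 arrays. It read 3.76, 4.22 and 4.13 with the control gapmer and 3.70, 4.14 and 4.40 with the EGOT gapmer, and the groups overlapped. The log2 difference of 0.05 had the widest interval of the 7 genes, from -0.41 to 0.50 (limma adjusted p = 0.916), and its sign turned in 3 of 13 alternatives. SNAI3, the least studied member of the family, read 5.97, 5.96 and 6.05 with the control gapmer and 6.04, 5.91 and 5.97 with the EGOT gapmer. Its log2 difference of -0.02 had an interval from -0.19 to 0.15 (limma adjusted p = 0.9), and its sign turned in 2 of 14 alternatives. The upper bound for SNAI3 lies below the lower bound for SNAI1 on the scale of log2 differences. Differences between genes were not tested.

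ZEB2, also called SIP1 for its binding to SMAD proteins, read 5.56, 5.71 and 5.54 with the control gapmer. It read 5.25, 5.28 and 5.33 with the EGOT gapmer. Its mean level of 5.44 ranked at percentile 36.5 of all named genes, and the background level of its probe set was not measured here. All 3 EGOT gapmer arrays lay below the control arrays, with a gap of 0.209 between the groups, larger than the range within either group. This was a log2 difference of -0.32 with standard error 0.0764 and a 95% interval from -0.50 to -0.14 (limma adjusted p = 0.0486). By size it was number 435 of the 475 genes that fell, and the exact permutation test gave p = 0.1. The adjusted p lay so near the threshold that the call was lost when any 1 array was left out, with differences from -0.35 to -0.26 and limma adjusted p from 0.0961 to 0.157. The direction held in all 14 alternatives, and the test was passed in 2. As with SNAI1, only another normalization or removal of a trend on gene length could have turned the direction.

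ZEB1, a repressor of E-cadherin and of polarity genes, read 7.018, 7.100 and 6.999 with the control gapmer and 6.882, 6.971 and 7.108 with the EGOT gapmer. The EGOT gapmer arrays spread on both sides of the control arrays. The log2 difference was -0.05 with an interval from -0.25 to 0.14 (limma adjusted p = 0.753), which does not reach the 0.80 seen in SNAI1. The intervals of ZEB1 and ZEB2 overlap. ZEB1 and ZEB2 are close paralogs, and how the probe design separates them is not given in the sources used here.

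TWIST1, a factor of mesoderm and skull development, read 3.55, 3.57 and 3.52 with the control gapmer and 3.72, 3.96 and 3.59 with the EGOT gapmer. The groups did not overlap, but the gap was 0.0234 and the EGOT gapmer arrays ranged over 0.371. The log2 difference of 0.21 did not pass (interval from -0.03 to 0.45, limma adjusted p = 0.256). Groups lay apart, the EGOT gapmer higher, in 20.2% of all genes, and lower in 11.5%, so groups that do not overlap are common here. TWIST2, a related factor of skin and bone, read 3.92, 3.69 and 4.11 with the control gapmer and 3.81, 4.01 and 3.85 with the EGOT gapmer. Its log2 difference was -0.02 with an interval from -0.30 to 0.26 (limma adjusted p = 0.947). SNAI2, TWIST1 and TWIST2 were the 3 genes below the array median on every array, and the background level of their probe sets was not measured here.

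**Figure D2:**
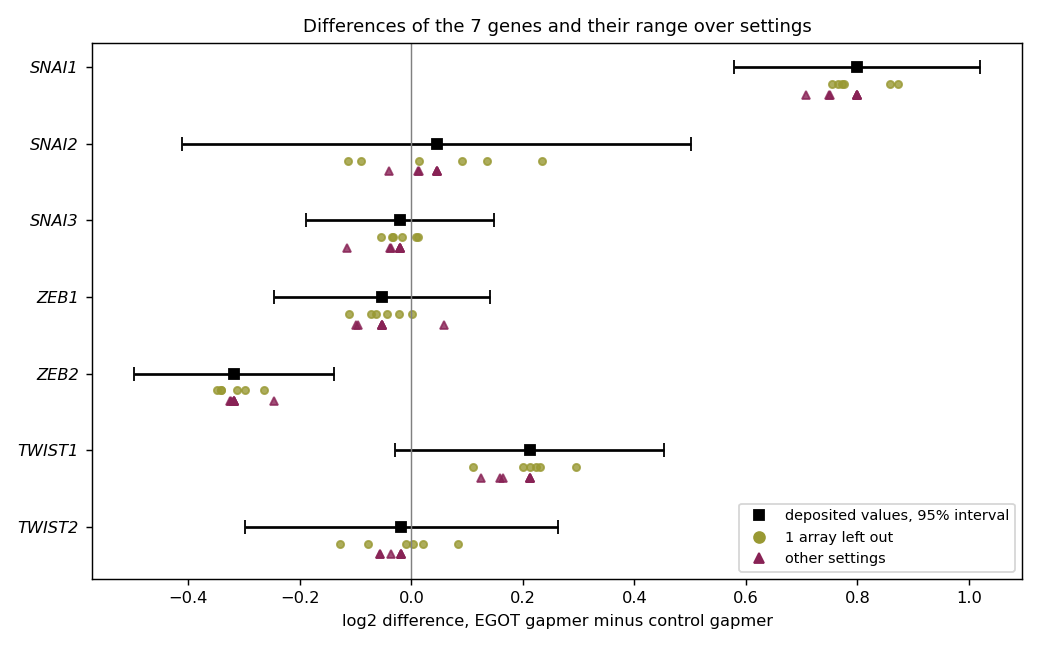
Log2 difference, EGOT gapmer minus control gapmer, of each of the 7 genes (x axis), with black squares and 95% intervals for the deposited values, circles for fits with 1 array left out and triangles for other settings. SNAI1 lies between 0.71 and 0.87 and ZEB2 between -0.35 and -0.25 in all of them, and the other intervals include 0.

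Gene length moved with the differences across the whole array. Among protein-coding genes spanning over 100 kb in RefSeq (GRCh38.p14), 13.2% fell and 0.852% rose, with a median log2 difference of -0.09. Among those under 10 kb, 0.839% fell and 8.79% rose, with a median of 0.08. SNAI1 spans 5.91 kb, ZEB2 136 kb and ZEB1 211 kb. With the trend on span removed SNAI1 was at 0.71 and still passed (limma adjusted p = 0.0252). ZEB2 was then at -0.25 and did not pass (limma adjusted p = 0.108). ZEB1, the longest of the 7, was at 0.06 (limma adjusted p = 0.714).

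**Figure D3:**
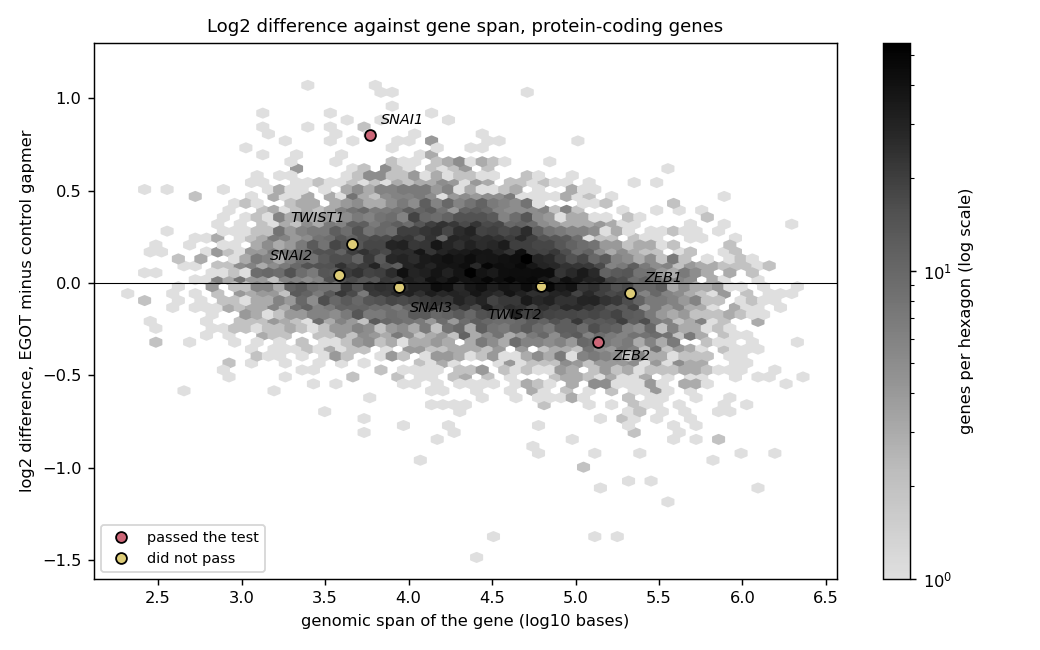
Log2 difference (y axis) against genomic span in log10 bases (x axis) for protein-coding genes, shaded by the number of genes per hexagon on a log scale, with the 7 genes marked. Long genes lie lower on average, SNAI1 lies at the upper edge of the short genes, and ZEB2 lies within the cloud of long genes that ZEB1 also belongs to.

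The 250 bases before the start of ZEB2, which fell, and of the most upstream ZEB1 start are shown because SNAI and ZEB factors are known to bind such sequences. Both were taken from RefSeq (GRCh38.p14) on the strand of the gene. Capitals mark every match to CACCT or its complement AGGTG, the ZEB core, including the longer E-box CACCTG or CAGGTG, which holds that core.
ZEB2 chr2:144520120-144520369, minus strand: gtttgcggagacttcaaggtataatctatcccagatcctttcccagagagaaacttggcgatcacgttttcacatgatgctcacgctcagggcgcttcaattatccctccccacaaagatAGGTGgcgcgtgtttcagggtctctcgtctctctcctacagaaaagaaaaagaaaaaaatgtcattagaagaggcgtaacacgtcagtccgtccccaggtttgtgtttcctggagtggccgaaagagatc
ZEB1 chr10:31318167-31318416, plus strand: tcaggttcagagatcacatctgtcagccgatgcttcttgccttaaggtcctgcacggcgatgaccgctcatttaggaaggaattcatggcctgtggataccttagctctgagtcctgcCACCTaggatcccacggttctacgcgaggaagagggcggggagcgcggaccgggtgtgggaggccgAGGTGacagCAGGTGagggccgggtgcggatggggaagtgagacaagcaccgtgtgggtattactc
Only E-boxes with the letters CACCTG or CAGGTG were counted, and other forms of E-box were not. The ZEB2 window held 1 core match and 0 E-boxes of this form. The ZEB1 window held 3 core matches, 1 of them within such an E-box. ZEB1 has 7 starts in the table, of which 2 held this form of E-box and 2 a core match. The single TWIST2 window held neither. Of 35116 windows of the same length 17.5% held the E-box and 45.4% the core on either strand, so such matches are common. A match is a run of letters and was not tested for binding. SNAI1, SNAI3 and TWIST1 had no entry in the promoter table.

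The transition factors' closest relatives did not pass. Of 9 genes listed, 6 were measured, and 0 rose or fell by limma over all genes. Their log2 differences ran from -0.17 in TCF15, a factor of somite development, to 0.20 in TCF21, a factor of kidney and heart mesenchyme. HAND1 and HAND2, which act in heart development, were at 0.11 and -0.03, and FERD3L and MSC at -0.03 and 0.18. Of 6 genes set beside the members as noncoding partners or neighbours, 4 were measured. HDAC9, the histone deacetylase gene next to TWIST1, fell by 0.42 on the log2 scale (limma adjusted p = 0.0399), but it was at -0.23 once the trend on span was removed (limma adjusted p = 0.201), and it did not pass when any 1 array was left out. SNAI3-AS1 was at 0.23 (limma adjusted p = 0.0878), ZEB1-AS1 at 0.08 (limma adjusted p = 0.656) and ZEB2-AS1 at -0.07 (limma adjusted p = 0.882). Whether the array reads each strand apart at these antisense pairs is not given in the sources used here.

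The other gene lists hold the partners, regulators and targets of the 7 factors. Over all 10 lists 167 genes were measured, and 20 passed, or 12% beside 8.41% of all genes, 6 higher and 14 lower. Their median log2 difference was -0.0034 beside 0.0372 over all genes. Of the 14 that fell, 8 span over 100 kb, as do 40 of the 167, and 0 of the 6 that rose do. With 1 array left out, 2, 0 and 0 of the 167 genes passed without control gapmer replicate 1, 2 or 3, and 13, 12 and 5 passed without EGOT gapmer replicate 1, 2 or 3. With the arrays that left 0 calls, 39 and 38 genes had an unadjusted p under 0.05 by limma, beside 50 with all arrays. All 20 kept their direction in every alternative, but leaving out 1 array could not turn it, because their groups do not overlap. Of these 20 genes 6 (AJUBA, HDAC2, SMAD7, BMP2, MIR200A and HDAC9) passed with no array left out but in none of the fits that left 1 out.

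**Figure D4:**
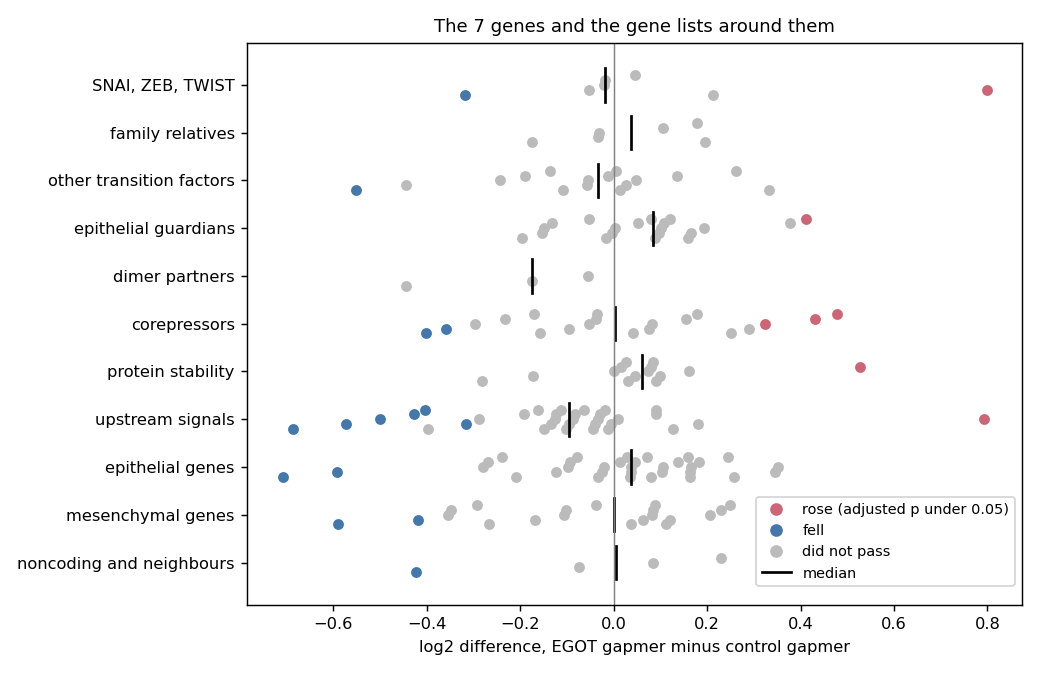
Log2 difference, EGOT gapmer minus control gapmer (x axis), of the 7 genes and of each measured gene in 10 lists (rows), with genes that rose in red, genes that fell in blue, genes that did not pass in grey and the median of each list as a black line. SNAI1 at 0.80 and HEY1 at 0.79 are the highest points, and PARD3 at -0.71 and EGFR at -0.69 the lowest.

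The list of signalling genes upstream of SNAI and ZEB holds ligands, receptors and transducers, and also the feedback inhibitors SMAD7 and AXIN2. Of its 33 measured genes 6 fell and 1 rose, beside 3.21% lower and 5.2% higher among all genes tested (8.41% in either direction). A difference below 0 was seen in 27 of the 33 (81.8%), beside 42.2% of all genes, and the median was -0.10 beside 0.0372. This share of signs was worked out for this list only, and other lists also leaned to 1 side. Enzymes of protein stability had 12 genes above 0 and 2 below, and dimer partners had 3 of 3 below. Corepressors and mesenchymal genes each had 10 above and 10 below. AXIN2, an inhibitor of Wnt signalling named after its value was seen, was at 0.09 (limma adjusted p = 0.672). EGFR, the receptor for epidermal growth factor, read 10.58, 10.64 and 10.61 with the control gapmer and 10.00, 9.74 and 10.03 with the EGOT gapmer, and fell by 0.69. IGF1R, an insulin-like growth factor receptor gene, fell by 0.57. NFKB1, an NF-kB subunit gene, fell by 0.50, JAG1, which encodes a Notch ligand, by 0.43, and SMAD7, an inhibitor of TGF-beta signalling, by 0.40 (limma adjusted p from 0.0137 to 0.028 for these 5 genes). HEY1, a repressor induced by Notch, was the gene that rose. It read 4.68, 4.90 and 4.72 with the control gapmer and 5.54, 5.42 and 5.71 with the EGOT gapmer, a log2 difference of 0.79 (limma adjusted p = 0.0122). TGF-beta ligands and their receptors were not analysed here.

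Of 16 measured factors outside the 3 families that have been linked to the transition, 1 fell and 0 rose, with a median of -0.03. TEAD1, the DNA-binding partner of YAP1, fell by 0.55 (limma adjusted p = 0.0108). It spans 270 kb, and with the trend on span removed it was at -0.42 and still passed (limma adjusted p = 0.0252). Among the dimer partners of TWIST proteins 3 were measured, and 0 passed. They were named after their values were seen. TCF4 was at -0.44 (limma adjusted p = 0.0584), TCF12 at -0.17 (limma adjusted p = 0.154) and TCF3 at -0.05 (limma adjusted p = 0.686). By unadjusted limma p TCF4 and TCF12, 2 of the 3, were under 0.05, beside 25% of all genes. TCF4 spans 414 kb and TCF12 373 kb. With the trend on span removed they were at -0.29 and -0.03, and 1 of the 3 had an unadjusted limma p under 0.05. The ID inhibitors of these factors were not analysed here.

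Most corepressors and chromatin enzymes that SNAI and ZEB factors recruit did not pass, and those that did went both ways. Of 20 measured, 3 rose, 2 fell and 15 did not pass, with a median of 0.0026. Over all genes 8.41% passed. With any 1 control gapmer array left out 0 of the 20 passed, and 2, 1 and 0 passed without EGOT gapmer replicate 1, 2 or 3. SIRT1, a deacetylase, rose by 0.48, PRMT5, an arginine methyltransferase, by 0.43 and HDAC2, a histone deacetylase, by 0.32. DNMT1, the maintenance DNA methyltransferase, fell by 0.40 and AJUBA, a LIM protein that bridges Snail to its partners, by 0.36 (limma adjusted p from 0.0262 to 0.0399 for these 5 genes). With the trend on span removed PRMT5, at 0.34 (limma adjusted p = 0.0912), and HDAC2, at 0.26 (limma adjusted p = 0.0614), no longer passed.

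Among 14 measured enzymes that set the stability of these proteins, 1 rose and 0 fell, with a median of 0.06. GSK3A, a kinase closely related to the GSK3B that marks Snail for degradation, rose by 0.53 (limma adjusted p = 0.0188). GSK3B itself was at 0.03. The array measures RNA only, and Snail protein was not measured.

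Factors that hold cells epithelial, with the miR-200 family, had 1 rise and 0 falls among 20 measured and a median of 0.08. The gene that rose was MIR200A, and the mature microRNAs are shown because they pair with ZEB1 and ZEB2 transcripts through the seed, bases 2 to 8, in capitals (RefSeq, GRCh38.p14). Of the 5 microRNAs 2 share the seed AACACUG.
hsa-miR-200a-3p: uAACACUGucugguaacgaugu
hsa-miR-141-3p: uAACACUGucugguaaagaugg
The other 3 share the seed AAUACUG, which differs from it at a single base.
hsa-miR-200b-3p: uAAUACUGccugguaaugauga
hsa-miR-200c-3p: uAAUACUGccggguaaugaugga
hsa-miR-429: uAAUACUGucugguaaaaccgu
MIR200A read 3.63, 3.41 and 3.50 with the control gapmer and 3.98, 3.78 and 4.02 with the EGOT gapmer, a log2 difference of 0.41 (limma adjusted p = 0.0454). Its groups did not overlap, but all values lay below the array median, and it passed in only 1 of 13 alternatives. The other genes of the family were at 0.12 for MIR429, 0.10 for MIR141, 0.08 for MIR200B and 0.17 for MIR200C, and none of these 4 passed (limma adjusted p from 0.485 to 0.850). MIR200C was at 4.90 in EGOT gapmer replicate 2, beside 3.99 and 3.86 in the other EGOT gapmer arrays. These probe sets read RNA from the microRNA gene, and mature microRNA was not measured as such.

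Epithelial genes, which these factors repress, gave 2 falls and 0 rises among 33 measured, with a median of 0.04. PARD3, a polarity scaffold gene, read 8.96, 9.07 and 9.03 with the control gapmer and 8.28, 8.28 and 8.36 with the EGOT gapmer, and fell by 0.71 (limma adjusted p = 0.0085). TJP1, which encodes the tight junction protein ZO-1, fell by 0.59 (limma adjusted p = 0.0114). PARD3 spans 706 kb and TJP1 270 kb, and with the trend on span removed they were at -0.53 and -0.47 and still passed. EPCAM, an epithelial adhesion gene, was at 0.17 (limma adjusted p = 0.27). CDH1, the gene for E-cadherin and the classic target of Snail, and CDH2 were not analysed here.

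Mesenchymal genes gave 2 falls and 0 rises among 20 measured of 48 listed, with a median of 0.0003. CD44, a hyaluronan receptor gene, fell by 0.59 (limma adjusted p = 0.0142) and CALD1, which encodes the actin-binding caldesmon, by 0.42 (limma adjusted p = 0.0171). CALD1 spans 259 kb, and with the trend on span removed it was at -0.29, near the threshold (limma adjusted p = 0.0494). CD44 was then at -0.56 (limma adjusted p = 0.0225). FN1, the fibronectin gene, was at -0.11 (limma adjusted p = 0.382). VIM, the vimentin gene, was at 0.11 (limma adjusted p = 0.428) by its brightest probe set, but at 0.34 as the mean of its probe sets (limma adjusted p = 0.0396), so its probe sets disagree.

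Markers of other cell types stood as follows. Of 7 measured fibroblast and stellate cell markers 0 passed, and their mean lay between 4.61 and 4.69 with the control gapmer and between 4.55 and 4.61 with the EGOT gapmer. Of 8 endothelial markers 0 passed, with a mean between 4.79 and 4.90 and between 4.85 and 4.94. Of 7 leukocyte markers 2 rose, CD68 by 1.06 and LYZ by 0.57. The mean of the 7 lay between 6.13 and 6.32 with the control gapmer and between 6.38 and 6.65 with the EGOT gapmer. CD68 and LYZ were the brightest of the 7 and weigh most in the log2 of the summed level. That lay between 9.84 and 9.94 with the control gapmer and between 10.52 and 10.55 with the EGOT gapmer. With the mean of its probe sets in place of the brighter one, LYZ was at 1.13 (limma adjusted p = 0.00577). The 5 markers that did not pass were CD2 at 0.34, CSF1R at 0.24, CD14 and TYROBP at -0.06 each, and NKG7 at -0.17, and the median of all 7 was 0.24. A part of leukocyte RNA in the rise of SNAI1 was not tested.

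The genes whose 6 values ran most like those of SNAI1, both the brightest of the 7 and the one with the smallest p, were CPE, RPL11 and COX8A. Their Pearson correlations with SNAI1 were 0.997, 0.997 and 0.996 over 6 arrays, the 3 highest among 6840 protein-coding genes above the median level. The arrays share the group difference, which sets much of such a correlation. CPE, a prohormone-processing enzyme gene, was at 0.27 on the scale of log2 differences (limma adjusted p = 0.058), RPL11, a ribosomal protein gene, at 0.25 (limma adjusted p = 0.0703) and COX8A, a cytochrome c oxidase gene, at 0.15 (limma adjusted p = 0.207). All 3 were smaller than the difference of SNAI1, and none of them passed.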

How the data were processed

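The authors deposited log2 expression values that came from RMA (background correction, quantile normalization and probe summary), as the submitters' processing notes name it. Its version, the software and any filters were not given in the sources used here. Per the labels, 6 µg RNA was labelled. Of 44629 probe sets 15835 (35.5%) had 1 gene symbol in GEO's platform annotation, 0 had several, and 28794 were unnamed here; 0 symbols needed updating against RefSeq (GRCh38.p14). Groups were compared with limma 3.58.1 (R 4.3.3; lmFit and eBayes, two-sided, Benjamini-Hochberg over 14812 genes, 1 probe set per gene), with 7.19 degrees of freedom. Intervals are 95% and cover 1 gene at a time. On simulated data for this comparison (14812 genes, 100 changed per size) the fit recovered 47% of genes changed by 0.5 and 83% of those changed by 1, with 10 false calls among 140. Far fewer genes were changed there than the 1245 that passed here, so these rates need not hold for the deposited data. Only 3 arrays per group limit the precision.

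The members, the 14 lists, the naming rule (every list member that passed, or the 6 largest; the measured relatives and partners; EPCAM, VIM and FN1; the 3 genes most like SNAI1) and the alternatives were chosen with earlier results of these data known. GSK3B, BMP2, AXIN2, CD2, CD14, CSF1R, NKG7, TYROBP and the other miR-200 genes were named after their values were seen. A planned reference of dim levels, olfactory receptor genes, had 0 genes here and was not used. Alternatives were other normalizations, a variance trend, a filter on dim genes, all probe sets, the mean of probe sets, removal of a lowess trend on gene span, a replicate block and leaving out each array.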

Additional observations from a re-analysis of the deposited data

How the results depend on the processing

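Over all genes 1245 passed, against 2513 with a variance trend, 2110 with dim genes left out, 67 with every probe set tested, 671 with the trend on span removed, and 9 to 579 with 1 array left out. Of the 7 genes 2 passed, against 1 with the other quantile normalization, cyclic loess, the variance trend, every probe set or the span trend removed, and 0 to 1 with 1 array left out. Of the list genes 20 passed, against 37, 34 and 1 with the variance trend, dim genes left out and every probe set, and 0 to 13 with 1 array left out.

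Same-numbered replicates did not deviate together from their group means (r = -0.0307, -0.054 and 0.0394). This does not settle whether they shared a culture or a day, which the labels do not state. With the replicate block limma called 0 of all genes (3438 at an unadjusted p under 0.05), 0 of the 7 genes (2 at an unadjusted p under 0.05) and 0 of the list genes (43). SNAI1 was at 0.80 with the block (limma adjusted p = 0.061) and ZEB2 at -0.32 (limma adjusted p = 0.115).

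SNAI1 was at 0.75 to 0.87 with 1 array left out. ZEB2 was at -0.32 after the other quantile normalization (limma adjusted p = 0.0615), -0.33 after cyclic loess (0.0589), -0.32 with the variance trend (0.0813) or every probe set (0.141) and -0.25 with the span trend removed (0.108), and at -0.35 to -0.26 with 1 array left out. With the span trend removed SNAI2 turned to -0.040 and ZEB1 to 0.058. With 1 array left out SNAI2 ran from -0.11 to 0.23, SNAI3 from -0.05 to 0.012, ZEB1 from -0.11 to 0.000104 and TWIST2 from -0.13 to 0.084. Among the other named genes, with 1 array left out FERD3L ran from -0.19 to 0.10, HAND1 from -0.031 to 0.24, HAND2 from -0.12 to 0.027 and ZEB2-AS1 from -0.22 to 0.13. ZEB2-AS1 was at 0.058 as the mean of its probe sets, and ZEB1-AS1 at -0.0094 with the span trend removed. The cause was not tested. The dim genes SNAI2, TWIST1 and TWIST2 were left out by the dim filter.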
